A study of Mus musculus with 2 samples.

Results

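The chemokine ligands are the genes whose symbols start with Ccl, Cxcl, Xcl or Cx3cl followed by a digit. This rule matched 44 of the 32285 genes in the files, which carried 38 distinct symbols because 11 of the 44 are annotated copies that share a symbol. At least 1 unique molecular identifier (UMI, the tag that marks each captured RNA molecule) was counted for 34 symbols, and none for Ccl21b, Ccl21c, Ccl26 and Ccl27b. A ligand was called measured when 1 cell class of 1 library gave it at least 10 UMIs and at least 10 counts per 1000000 UMIs of that class (CPM), which held for 31 symbols. Ccl27a, Cxcl15 and Cxcl17 were detected below that level. Levels are given in CPM, from UMIs summed over the cells of a class within 1 library, and are not divided by gene length because each molecule is tagged once at its end.

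Chemokines are small secreted proteins that draw leukocytes along a gradient by binding G protein-coupled receptors on the moving cell. CXC ligands such as Cxcl1, Cxcl2, Cxcl3 and Cxcl5 bind Cxcr2 and call neutrophils, the inflammatory CC ligands call monocytes, T cells and eosinophils, and Ccl19, Ccl21a, Cxcl12 and Cxcl13 place cells within tissues and lymphoid structures. In the gut, the epithelium itself makes some of them, among them Ccl20, Ccl25 and Ccl28, which bring in lymphocytes that carry Ccr6, Ccr9 or Ccr10.

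Mouse colorectal tumours were induced with AOM-DSS, the carcinogen azoxymethane combined with the colon irritant dextran sulfate sodium, and were profiled by 10x Genomics droplet single-cell RNA sequencing. The library WT came from mice with the floxed genotype Mtch2fl/fl and no Cre, and cKO from mice of the genotype Mtch2fl/fl VilCre, in which the Villin promoter drives Cre in intestinal epithelium. Both groups carried the floxed alleles and received AOM-DSS, and their tissue was labelled intestine. Tumours of each genotype were pooled and dissociated with trypsin before 1 library was made per genotype, so that neither the number of mice nor the spread between them can be read from the files, and the sources used here do not state the age of the mice. No test between genotypes was made, every interval below covers counting error at 95%, and a difference between the libraries is a difference between 2 pools. The pools also differed in their make-up of cells with Xist or Y-linked UMIs, given at the end.

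The files held 9445 WT and 6723 cKO barcodes with 116066712 and 97364087 UMIs. After filters on genes, mitochondrial share and doublets, 7245 WT and 4388 cKO cells were kept. Cells with at least 1500 UMIs were assigned to classes by counts of marker genes that include no chemokine and no chemokine receptor, and class names below mean cells with the markers of that type. The gate took 4125 WT and 3263 cKO cells, and left unassigned 401 and 384 deep cells and 2719 and 741 kept barcodes under 1500 UMIs. Of the cells, 906 WT and 855 cKO lay within 2-fold of the cut on epithelial markers. In both libraries together, 22 barcode sequences were shared, 5 of them on gated cells. Mtch2, the targeted gene, stood at 93.6 CPM (91.6 to 95.6) in WT and 23.2 (22.04 to 24.47) in cKO epithelial cells, and at 50.7 and 57.9 in macrophages and monocytes. It was also lower in the cKO library in neutrophils, at 37.8 (24.2 to 56.2) and 17.6 (12.4 to 24.2), and stood at 69.1 and 38.5 in dendritic cells. Epcam was detected in 98.9% of WT and 98.3% of cKO epithelial cells. In bulk sums such as these, more cells that make a ligand and more RNA per cell cannot be told apart, so the share of cells with a UMI is given where it matters.

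The sequences just upstream of 6 ligands are shown, which are the measured ligands that held a match to a motif searched for. They are the 150 bases before the RefSeq start of each gene (GRCm38.p6), 5′ to 3′ on the gene's strand, with matches to the NF-kappaB consensus or to the AP-1 motif TGANTCA in capitals. Cxcl1 is at chr5:90891095-90891244 on the plus strand, Cxcl2 at chr5:90903749-90903898 on the plus strand and Cxcl3 at chr5:90785951-90786100 on the plus strand. Cxcl10 is at chr5:92348890-92349039 on the minus strand, Ccl20 at chr1:83116616-83116765 on the plus strand and Ccl9 at chr11:83578637-83578786 on the minus strand.
Cxcl1: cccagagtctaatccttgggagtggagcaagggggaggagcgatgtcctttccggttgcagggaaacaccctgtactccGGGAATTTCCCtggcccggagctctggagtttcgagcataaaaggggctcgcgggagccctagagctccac
Cxcl2: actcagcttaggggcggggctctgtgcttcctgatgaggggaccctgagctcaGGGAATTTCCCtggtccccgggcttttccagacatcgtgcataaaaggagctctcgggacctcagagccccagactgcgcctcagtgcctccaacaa
Cxcl3: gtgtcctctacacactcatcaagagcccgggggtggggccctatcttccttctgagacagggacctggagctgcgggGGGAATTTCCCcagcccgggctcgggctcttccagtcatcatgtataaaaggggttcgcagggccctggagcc
Cxcl10: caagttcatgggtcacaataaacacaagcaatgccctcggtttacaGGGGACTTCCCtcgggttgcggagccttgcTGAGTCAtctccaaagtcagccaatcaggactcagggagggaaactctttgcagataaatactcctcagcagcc
Ccl20: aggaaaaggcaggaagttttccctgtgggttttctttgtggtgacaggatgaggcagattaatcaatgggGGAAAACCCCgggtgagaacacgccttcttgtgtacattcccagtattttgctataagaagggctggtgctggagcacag
Ccl9: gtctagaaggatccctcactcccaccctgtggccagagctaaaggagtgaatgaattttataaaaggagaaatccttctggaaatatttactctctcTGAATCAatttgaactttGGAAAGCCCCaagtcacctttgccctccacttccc

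The run GGGAATTTCCC stood within 100 bases of the start in all of Cxcl1, Cxcl2 and Cxcl3. Of the 31 measured ligands, 23 had an entry among the RefSeq promoters. Cxcl5, also a neutrophil attractant, had none and was not searched. The NF-kappaB consensus stood in the 150 bases on either strand in 6 of these 23, against 4.603% of 32851 promoters of the same length. The AP-1 motif stood in Ccl9 and Cxcl10, against 4.24% of promoters, and the core of the interferon-stimulated response element in 0 of the 23, against 1.59%. Both strands were searched, and a gene with overlapping matches was counted once. Ligands were counted by gene and the background by distinct promoter sequence, so a ligand with several sequences could match in any of them. A match describes the letters only and shows no binding.

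Of the measured ligands, 12 lie on chromosome 11, 8 on chromosome 5 and 4 on chromosome 8 (GENCODE release for GRCm38), many of them in runs of neighbouring genes. On chromosome 5 the run opens with Cxcl5 at 90759360 and ends with Cxcl2 at 90905938, and Cxcl9 and Cxcl10 follow between 92321347 and 92348889. Neighbouring genes often had different main sources. Cxcl5 and Cxcl1 were highest in fibroblasts while Cxcl3 and Cxcl2, between and beside them, were highest in neutrophils. On chromosome 11, Ccl2, Ccl7 and Ccl11 (82035571 to 82062955) were led by stromal or mast cells, and Ccl12 and Ccl8 (82101845 to 82116799) by macrophages. Ccl5, Ccl9, Ccl6, Ccl3 and Ccl4 (83525778 to 83664683) were led by T cells, macrophages or neutrophils, except Ccl4 in WT, which was led by mast cells and basophils. On chromosome 8, Ccl22 and Ccl17, both dendritic, flank Cx3cl1, which was endothelial in WT and epithelial in cKO.

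Neutrophils had the highest summed ligand level of all 10 classes in both libraries, at 23505 CPM (23130 to 23886) in 132 WT cells and 26055 (25837 to 26274) in 352 cKO cells. Endothelial cells followed in WT with 8962 and macrophages and monocytes in cKO with 11631. Fibroblasts reached 5203 and 8456, mast cells and basophils 3690 and 1627, dendritic cells 2790 and 2475, and T and NK cells 1417 and 1497. Epithelial cells were at 1088 (1081 to 1094) in WT and 962 (954 to 970) in cKO. Plasma cells at 317 and 355 and B cells at 193 and 203 were lowest. The level of a class is a matter of few ligands. Cxcl2 alone made up 73.9% of the neutrophil sum in WT and 71.6% in cKO, and Ccl21a 95.4% and 82.0% of the endothelial sum.

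**Figure D1:**
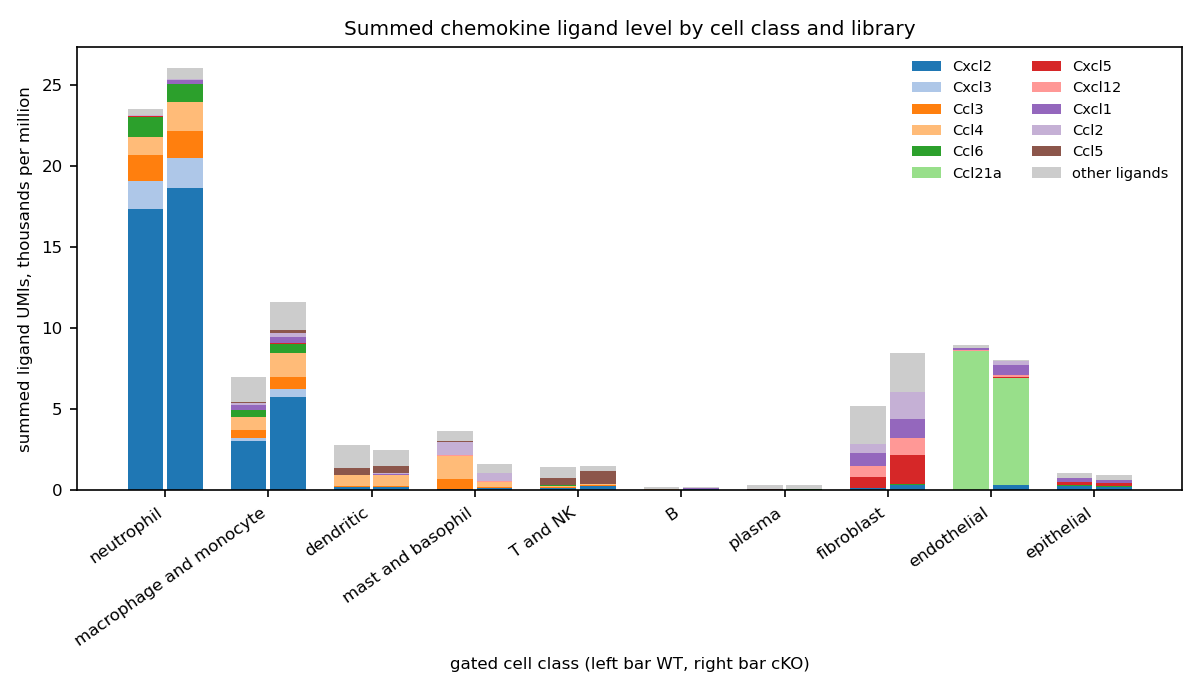
Summed chemokine ligand level (y axis, units of 1000 of CPM, linear from 0) in each marker-gated class (x axis), with WT as the left and cKO as the right bar, and named ligands as coloured segments. Cxcl2 fills 73.9% and 71.6% of the neutrophil bars, which are highest at 23505 and 26055, and Ccl21a 95.4% and 82.0% of the endothelial bars.

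Epithelial cells were nonetheless the largest pool of ligand RNA in the gated cells, because there were 3373 of them in WT and 1859 in cKO, with medians of 13339 and 27323 UMIs. They were the class with the most gated UMIs for 17 measured ligands in WT and 13 in cKO, although they had the highest CPM for only 1 ligand in WT and 2 in cKO. Cxcl1 shows the contrast. Its level was 229 CPM in WT epithelium against 779 in fibroblasts, yet epithelial cells held 94.1% of its gated UMIs in WT and 81.1% in cKO. For Cxcl2 the epithelium held 52.1% of gated UMIs in WT and 18.3% in cKO, where neutrophils held 54.2%. The main source named below is the class with the highest level among the 10 classes that hold 20 or more cells per library.

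The main source was the same class in both libraries for 22 of 31 measured ligands. Fibroblasts were the main source of 9 ligands in each library, neutrophils of 5 in each, and macrophages and monocytes of 4 in WT and 6 in cKO. For 13 ligands the source stayed the same in both libraries and under all 5 other ways of forming or summing the classes, namely Ccl3, Ccl6, Ccl8, Ccl9, Ccl12, Ccl17, Ccl21a, Ccl22, Ccl28, Cxcl2, Cxcl3, Cxcl16 and Xcl1. When the cell with the most UMIs of a ligand was left out of each class, an alternative chosen after the data were seen, the source was kept for 25 ligands in WT and 27 in cKO.

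**Figure D2:**
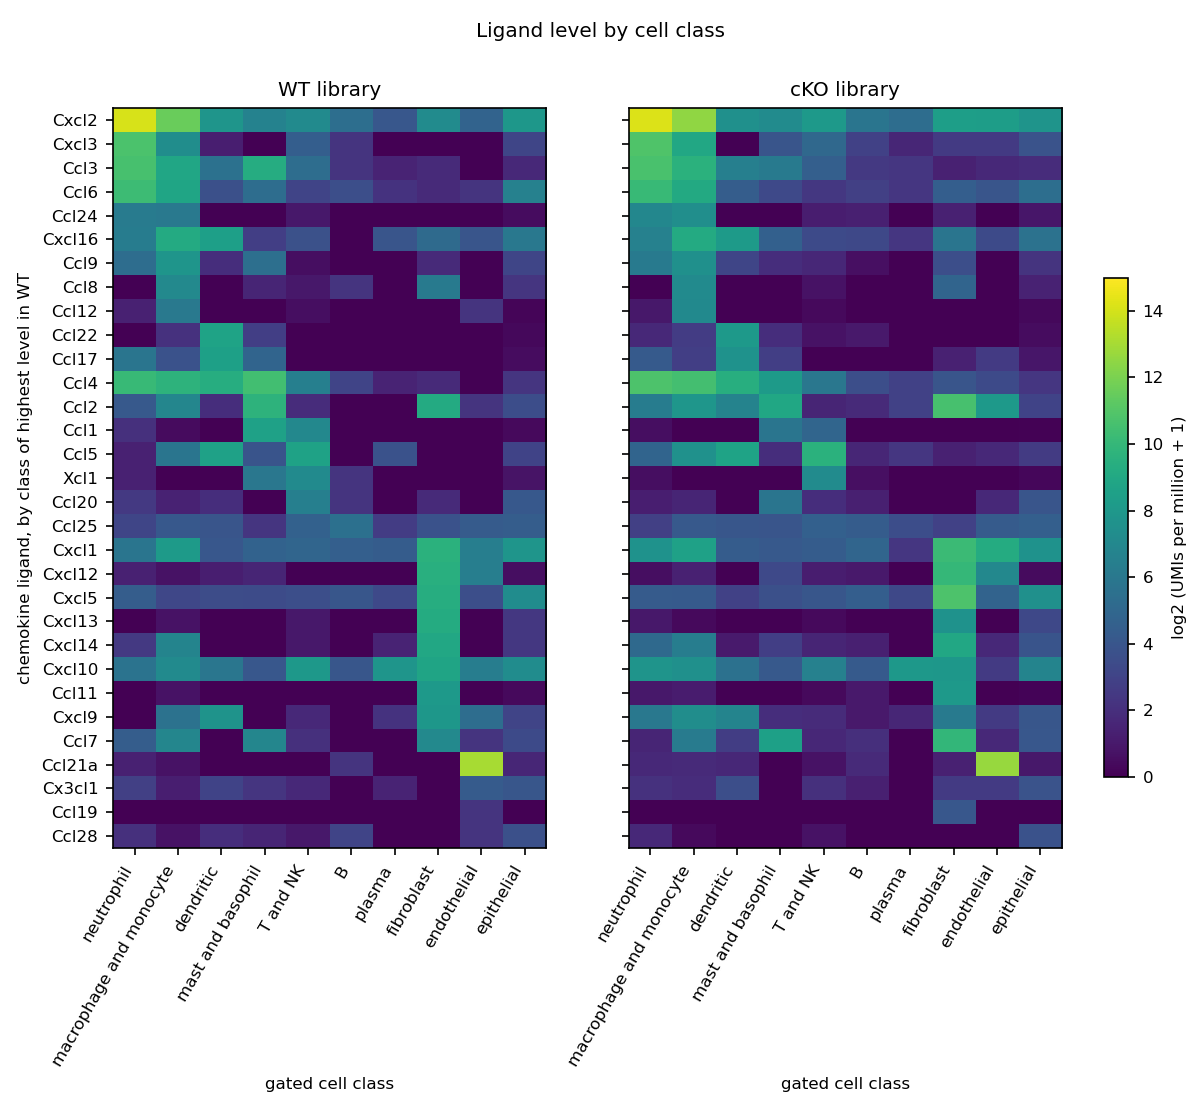
Level of each measured chemokine ligand (rows) in the 10 marker-gated classes (columns), WT and cKO as separate panels, as log2 of CPM plus 1. Cxcl2 is at 17377 and 18661 in neutrophils, Ccl21a at 8552 and 6596 in endothelial cells, and Ccl28 peaks in the epithelium at 11.5 and 12.5.

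Neutrophils were the main source of Cxcl2, Cxcl3, Ccl3 and Ccl6 in both libraries. Cxcl2, a Cxcr2 ligand, stood at 17377 CPM (17054 to 17704) in WT and 18661 (18477 to 18847) in cKO, which was 2.50 log2 units above the next class, macrophages, in WT and 1.70 in cKO. It was detected in 100% of 132 WT and 98.6% of 352 cKO neutrophils, at median depths of 4155 and 4950 UMIs. In B cells, a lineage not known for this ligand, 27.5% and 29.9% of cells had a UMI at median depths of 6546.5 and 6045, and after thinning each cell to 1500 UMIs the shares were 99.0% and 97.3% in neutrophils against 6.51% and 8.89% in B cells. Single neutrophils differed widely. The median Cxcl2 level per cell was 9299 in WT, with quartiles of 5536 and 19101, and 13138 in cKO, with quartiles of 6826 and 29412.

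Cxcl3, a close relative of Cxcl2, was at 1696 in WT and 1874 in cKO neutrophils and was detected in 45.5% and 51.1% of them. Ccl3, an inflammatory CC ligand that binds Ccr1, was at 1618 and 1670 with UMIs in 50% and 60.8% of cells. Ccl4, a close relative of Ccl3, was highest in cKO neutrophils at 1772, while in WT its level of 1109 in neutrophils was below 1379 in mast cells and basophils. Ccl3 and Ccl4 had the most alike levels of any 2 ligands over the 20 class by library values (Pearson r = 0.96, a description over classes that share their libraries). Ccl6, a myeloid CC ligand of mice that binds Ccr1, was at 1251 and 1106 with UMIs in 79.5% and 75.3% of neutrophils, against 7.50% and 3.90% of B cells. The genes with levels most like those of Cxcl2 were Prdx5 (r = 0.95), Slc7a11 (0.95) and C5ar1 (0.93).

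Macrophages and monocytes were second to neutrophils for Cxcl2 at 3063 in 148 WT cells and 5747 in 168 cKO cells. Ccl4 was at 834 and 1480.45 in them and Ccl3 at 472 and 768, and they were the main source of other ligands that neutrophils carried at lower level or hardly at all. Cxcl16, which exists in a membrane-bound form and binds Cxcr6, was spread over most cells of its source. It stood at 584 and 583, was detected in 92.6% and 90.5% of the cells, and no single cell held more than 2.26% or 3.01% of its UMIs. Ccl12, a monocyte attractant of mice, was at 64.6 and 137 and macrophages held 92.1% and 96.3% of its gated UMIs. Ccl8 was at 130.3 and 144, and Ccl9, a Ccr1 ligand, at 226 and 181. Ccl24, an eosinophil attractant that binds Ccr3, was at 66.4 and 166. In WT its highest class was neutrophils at 74.0, but 97.9% of those 47 UMIs came from 1 cell.

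Within this class, cells were split at 32 UMIs of the C1q genes per 10000 into C1q-high (113 WT, 105 cKO) and C1q-low cells (35 WT, 63 cKO). Of them, 40 WT and 41 cKO cells lay within 2-fold of the cut. Complement C1q marks resident-type macrophages, and monocytes have little. Ccl12 was at 78.0 and 206 in C1q-high against 7.35 and 5.52 in C1q-low cells, and Ccl8 at 160 and 218 against 3.68 and 0.92. Cxcl2 went the other way, at 2403 and 3899 in C1q-high and 5892 and 9327 in C1q-low cells, as did Cxcl3 at 89.1 and 148 against 471 and 1211. Both patterns held in both libraries. Neutrophil marker RNA was 7.93 and 7.46 UMIs per 10000 in C1q-high and 12.6 and 13.6 in C1q-low cells, against 813 and 1054 in neutrophils, and its part in the Cxcl2 difference was not tested.

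Dendritic cells, 31 in WT and 43 in cKO, were the main source of both Ccr4 ligands. Their highest ligand was Ccl4, at 658 and 667, and Ccl5 was at 383 and 417. Ccl22 was at 416 and 278, and the class held 89.2% and 82.4% of its gated UMIs. Ccl17 was at 369 and 197, but 1 WT cell held 51.2% of its UMIs. Cells with markers of migratory dendritic cells, 10 in WT and 8 in cKO, carried Ccl22 at 1219 and 1197 and Ccl5 at 1268 and 1912. Cells with markers of conventional type 1 dendritic cells, 13 and 18, carried Ccl22 at 107 and 33.6, and Cxcl9, a Cxcr3 ligand, at 328 and 238. In the latter, 1 cell held 55.3% of the Cxcl9 UMIs in WT and 48.9% in cKO. Over whole classes, the main source of Cxcl9 was fibroblasts in WT, at 244 beside 205 in dendritic cells. The counting interval of that log2 ratio, -0.13 to 0.64, held 0. In cKO the main source was macrophages and monocytes, at 160 beside 110 in dendritic cells. Of the 5 other ways of forming or summing the classes, 4 in WT and 2 in cKO gave dendritic cells as the source of Cxcl9. The epithelium held 62.4% and 53.3% of its gated UMIs.

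T and NK cells were the main source of Xcl1, the ligand of Xcr1, at 144 and 152, and of Ccl5, an attractant of T cells and eosinophils, at 404 and 749.8. In WT dendritic cells were close behind for Ccl5, at 383. Both ligands were highest in the cytotoxic subset, 27 WT and 57 cKO cells, which held 601 of 877 WT and 1390 of 2361 cKO Ccl5 UMIs. There Ccl5 was at 2050.2 and 2119 and Xcl1 at 710 and 627. Ccl5 had UMIs in 88.9% and 78.9% of cytotoxic cells, against 31.2% and 24.5% of regulatory T cells (138 and 184 cells), in which its level was 121 and 154. Genes with levels most like Ccl5 were the NK receptor genes Klrb1b, Klrk1 and Klrd1 (r = 0.91, 0.90 and 0.88 over the 20 values). Ccl1, a Ccr8 ligand, was highest in mast cells and basophils at 376 and 55.6 and second in T cells at 126 and 28.6, where 83.2% of the WT UMIs came from 1 cell. In mast cells and basophils, 26.2% of WT and 4.55% of cKO cells had a Ccl1 UMI. Without the top cell of each class, its cKO source was T and NK cells.

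Mast cells and basophils, 65 in WT and 44 in cKO, were also the highest class for Ccl2 in WT, at 828 against 489 in cKO. Ccl2, the main monocyte attractant, had UMIs in 40.0% and 34.1% of these cells. In cKO its highest class was fibroblasts at 1617, against 586 in WT. Ccl7, which shares Ccr2 with it, was at 119 and 372 in mast cells and at 131 and 983 in fibroblasts. Ccl4 in mast cells and basophils was at 1379 and 289.8, and Ccl3 at 619 and 67.3.

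Fibroblasts numbered 32 in WT and 39 in cKO and carried the structural chemokines together with inflammatory ones. Cxcl12, the Cxcr4 ligand of stroma, was at 699 and 1035 and detected in 71.9% and 89.7% of them. Ccl11, an eosinophil attractant, was at 271 and 269 and at most 1.25 in the other 9 classes. The genes with levels most like it were Pdgfra, Dpt and Col6a2 (r = 0.996, 0.994 and 0.992). All of them are markers by which the fibroblast class was gated, so a high r with them follows in part from the gate. Cxcl13, which draws B cells through Cxcr5, was at 611 and 199.5 against at most 8.41 in the epithelium, the next class. Cxcl14 was at 518 and 505. The neutrophil attractants Cxcl1 and Cxcl5 were at 779 and 1194 and at 651 and 1823, but 68.7% and 55.8% of the fibroblast Cxcl5 UMIs came from 1 cell in each library. When cells were clustered instead of gated, no cluster was called fibroblast, and the 9 ligands took other sources there. A cluster of 179 WT and 82 cKO cells did score highest for fibroblast markers, at 0.54 against 0.18 for the next class. It was left unassigned because its median epithelial marker level, 72.3 UMIs per 10000, was above the cut of 32.

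Endothelial cells, 27 in WT and 40 in cKO, were the main source of Ccl21a, the Ccr7 ligand of lymphatic vessels. It stood at 8552 and 6596 against 3.78 and 2.52 in the next class, and came from 37.0% and 52.5% of the cells. Cxcl1 was next in endothelial cells, at 84.9 and 604, with 60.4% of the cKO UMIs in 1 cell. Ccl19, the other Ccr7 ligand, gave 19 UMIs in all barcodes together, and its only level above 10 was 16.1 in cKO fibroblasts, from 10 UMIs. Cx3cl1, a membrane-bound ligand of Cx3cr1, was at 18.5 from 5 UMIs in WT endothelium and was carried by epithelial cells at 15.2 and 13.4, which held 98.1% and 94.9% of its gated UMIs.

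Plasma cells and B cells carried little beside single ligands. In plasma cells, 22 in WT and 23 in cKO, Cxcl10 was at 223 (186 to 266) and 258 (214 to 308), which in cKO was next to fibroblasts at 246, and Cxcl2 was at 16.05 and 40.2. In WT the highest Cxcl10 level was 429.8, in fibroblasts. In B cells no ligand was above 45.4 in WT or 56.0 in cKO, and Cxcl1 was at 22.7 and 28.7.

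**Figure D3:**
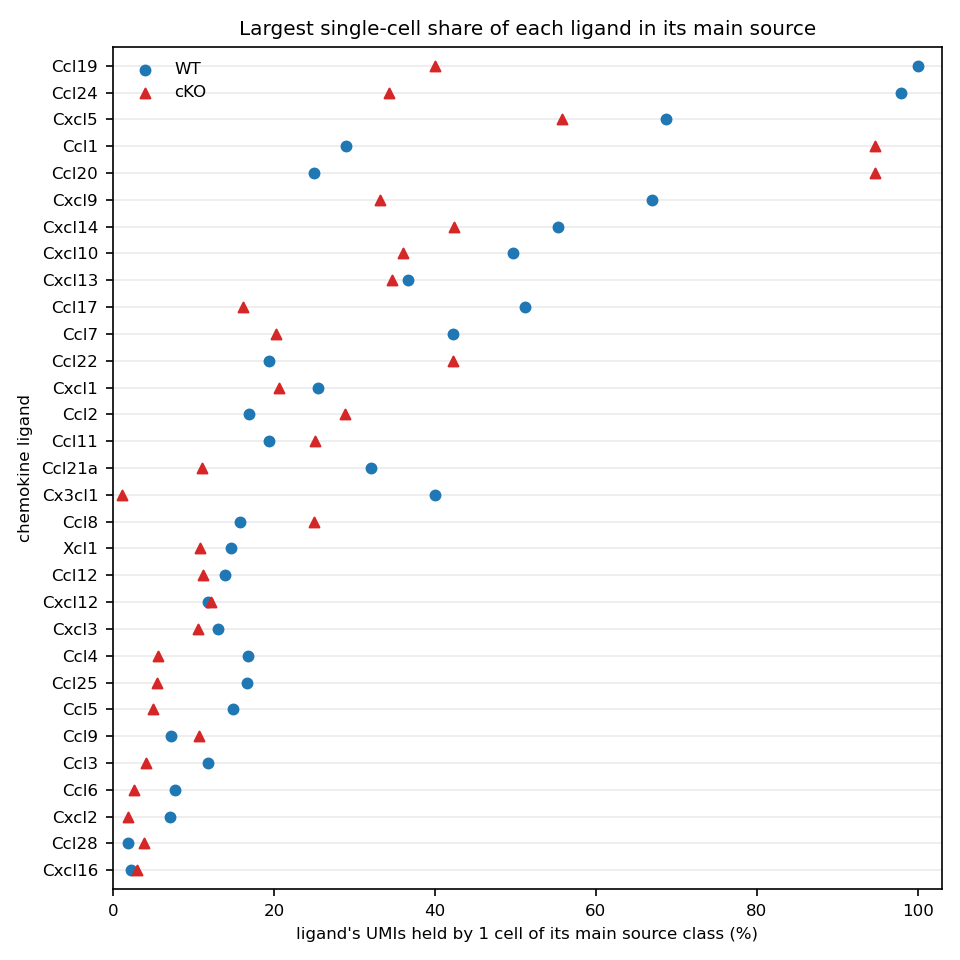
Share of a ligand's UMIs in its main source class that 1 cell holds (x axis, percent), for each measured ligand, with WT as circles and cKO as triangles. Ccl19, Ccl24, Ccl20 and Ccl1 reach over 90% in 1 library, while Cxcl16 is at 2.26% and 3.01% and Ccl28 at 1.93% and 3.90%.

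Ccl28 was the only measured ligand whose highest class was the epithelium in both libraries, at 11.5 and 12.5 with UMIs in 11.8% and 13.7% of cells. It is a mucosal ligand of Ccr10 and Ccr3. Within the epithelium it was highest in absorptive cells at 31.0 (27.6 to 34.7) in WT and 45.5 (40.1 to 51.4) in cKO, and at 0.68 and 0.31 in stem cells. Cx3cl1 was also highest in absorptive cells, with 35.2 and 26.9 against 12.4 and 12.8 in cells with no subtype call. Cells with surface and wound markers came next at 23.6 and 22.4. In cKO the interval of the log2 ratio between these first 2 subtypes, -0.10 to 0.64, held 0. Ccl25, the gut ligand of Ccr9, lay between 10.7 and 23.6 in WT and between 12.95 and 28.0 in cKO over the 6 epithelial subtypes other than squamous. Its highest class was B cells in WT, at 45.4 from 12 UMIs, and T and NK cells in cKO, at 23.2 beside 22.4 in the epithelium. Ccl27a did not reach the measured level in any class but was at 15.2 and 18.6 in stem cells against 2.19 and 1.78 in absorptive cells.

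The neutrophil attractants led the epithelial sum. Cxcl2 was at 245 (242 to 248.7) in WT and 216 (212 to 220) in cKO, Cxcl1 at 229 and 196, Cxcl5 at 154 and 184, and Cxcl10, an interferon-induced Cxcr3 ligand, at 153 and 108. Cxcl5, Cxcl2, Cxcl3, Ccl7 and Cxcl16 were high in cells with surface and wound markers (309 WT, 184 cKO). There Cxcl5 was at 316 and 342 against 59.0 and 79.7 in stem cells, and Cxcl16 at 131 and 116 against 28.9 and 20.7. Cxcl3 was at 22.8 and 62.9 against 1.37 and 2.63 in stem cells. These levels were not particular to surface cells. Absorptive cells carried Cxcl5 at 219 and 382, the highest subtype in cKO, and Cxcl16 at 93.0 and 64.9. Ccl7 was at 38.5 and 60.6 in surface and 20.8 and 51.4 in absorptive cells. Cxcl2 was at 341 and 403 in surface cells and 282 and 263 in cells with no subtype call. Cxcl10 had another order, with 235 and 145 in stem cells and 29.0 and 4.99 in absorptive cells. Cells with no subtype call carried Cxcl10 at 205 and 166, the highest level in cKO. The cKO library held 58 cells with squamous markers and WT 6, which were sought outside the epithelial gate as well. The 58 cKO cells carried Cxcl5 at 816, Cxcl2 at 408 and Ccl20 at 167, the last from 32.8% of them.

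Goblet and Paneth cells (347 WT, 99 cKO) carried a pair of CC ligands that other epithelial cells had at low level. Ccl6 was at 1236 (1209 to 1263) in WT and 720 (690.2 to 750.4) in cKO, with UMIs in 54.2% and 56.6% of the cells, against at most 22.2 and 14.4 in any other main subtype. Neutrophils stood at 1251 and 1106. Ccl9 was at 93.5 and 56.4 in the same cells. Split by 1 marker at a time at 32 UMIs per 10000, cells high in Spink4, a goblet and Paneth cell peptide, held 96.5% of the Ccl6 UMIs of the subtype in WT and 97.1% in cKO. They were 136 of 347 WT and 50 of 99 cKO cells, had 68.0% and 75.9% of all UMIs of the subtype, and carried Ccl6 at 1754 and 921 against 135 and 87.3 in the rest. Cells high in Lyz1, the Paneth lysozyme, held 76.0% and 51.3%, and cells high in Muc2 37.8% and 50.6%. Ccl6 was also higher in cells high in Muc2, Tff3, Agr2, Ang4, Reg4 or Lyz1 than in the rest, in both libraries. For Itln1 and Zg16 this held in WT only. Cells high in Clca1 (5 WT, 2 cKO) carried less, at 659 and 151 against 1241 and 726 in the rest. The few cells high in Fcgbp (12 and 3) did too, at 1086 and 200 against 1242 and 725. Neutrophil markers stood at 2.72 and 3.06 UMIs per 10000 in the epithelium as a whole, and their part in Ccl6 was not tested.

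**Figure D4:**
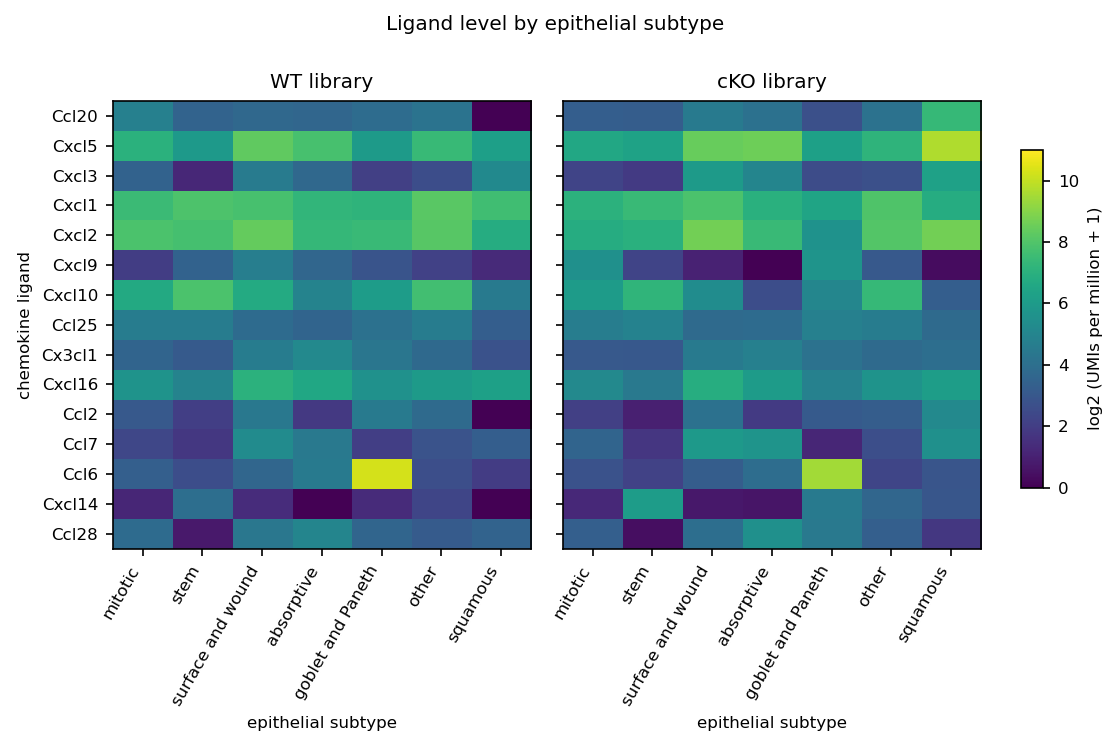
Level of measured chemokine ligands (rows) in epithelial subtypes (columns) of WT and cKO, as log2 of CPM plus 1. Ccl6 is at 1236 and 720 in goblet and Paneth cells and at most 22.2 and 14.4 in the other main subtypes, and Cxcl5 is lowest in stem cells in WT, at 59.0.

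The libraries were compared in the 4 classes with at least 100 cells in each. A ligand was counted as different where its levels differed at least 2-fold and the counting interval of the log2 ratio left out 0. In the epithelium, 2 of 15 measured ligands were higher in cKO and 1 lower, against 0.351% higher and 0.244% lower of 9408 genes measured there. In T and NK cells 0 of 13 were higher and 3 lower, against 1.22% and 1.47% of 9037 genes. In macrophages and monocytes 7 of 20 were higher and 1 lower, against 2.4% and 1.33% of 8676 genes. In neutrophils 6 of 17 were higher and 2 lower, against 3.17% and 3.6% of 7392 genes. The median log2 ratio of the measured ligands was -0.15, -0.38, 0.57 and 0.68 in these 4 classes, and of all measured genes -0.02, -0.01, -0.01 and -0.12. Of these 22 differences, 4 met the rule under all alternatives tried, namely Ccl6 in the epithelium, Ccl20 and Cxcl10 in T and NK cells, and Cxcl10 in neutrophils.

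**Figure D5:**
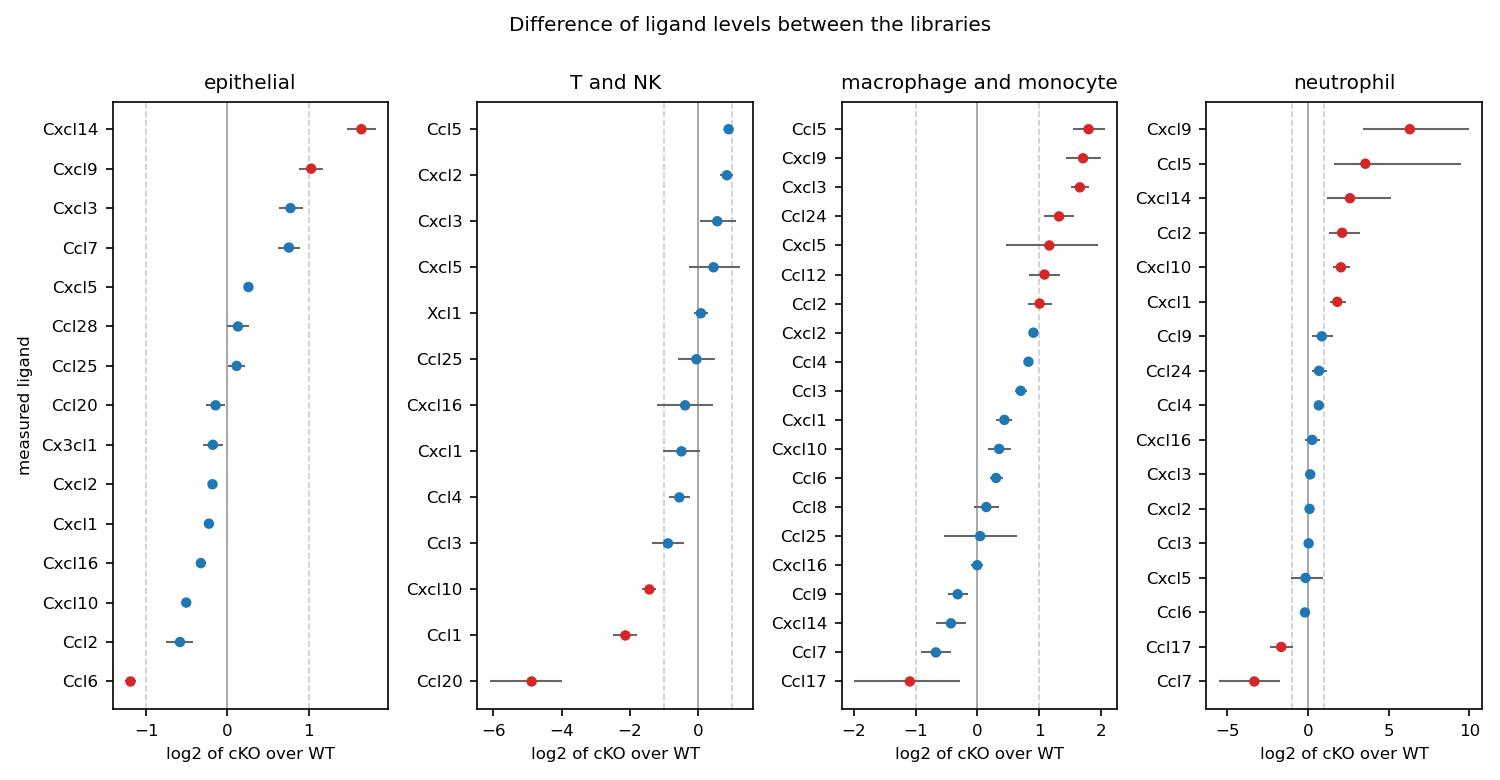
Log2 ratio of cKO over WT (x axis) for each measured chemokine ligand (y axis) in the 4 compared classes, with 95% counting intervals as lines and ligands past the 2-fold rule in red. The interval of Cxcl9 in neutrophils has no upper bound and is drawn to 10. Cxcl2 lies near 0 in neutrophils and the epithelium, while Cxcl10 is at 2.04 in neutrophils and at -1.43 in T and NK cells.

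In the epithelium, where Mtch2 was targeted, the summed ligand level differed little (log2 ratio -0.18, interval -0.19 to -0.16). Ccl6 was at 95.5 in WT and 41.7 in cKO (log2 ratio -1.20, interval -1.26 to -1.13). Goblet and Paneth cells held 91.8% and 86.8% of its epithelial UMIs, and they were 10.3% (9.28 to 11.4) of WT and 5.33% (4.35 to 6.45) of cKO epithelial cells, at median depths of 3975 and 7402 UMIs. Within them Ccl6 was at 1236 and 720, a log2 ratio of -0.78 (interval -0.85 to -0.71), which does not reach 2-fold. Cxcl14 was at 4.38 in WT and 13.7 in cKO (log2 ratio 1.65, interval 1.48 to 1.83), and stem cells had 14.6 and 67.2, with UMIs in 8% and 11.9% of them. Cxcl9 was at 7.28 and 14.9, but 55.6% of its cKO UMIs came from 1 cell, and without the top cell of each library the log2 ratio was 0.14.

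Split by epithelial subtype, the differences between the libraries were not the same in all cells. In mitotic cells 2 of 11 measured ligands were higher in cKO and 2 lower, against 0.287% and 0.563% of 9411 genes, and in stem cells 1 of 10 was higher and 0 lower, against 0.861% and 0.733% of 9413 genes. In surface cells 2 of 15 were higher and 2 lower, against 0.929% and 0.872% of 8717 genes, and in absorptive cells 2 of 13 were higher and 2 lower, against 0.918% and 1.18% of 8283 genes. In goblet and Paneth cells 2 of 16 were higher and 5 lower, against 1.92% and 1.52% of 9425 genes, and in cells with no subtype call 2 of 12 were higher and 1 lower, against 0.31% and 0.353% of 9357 genes. Cxcl10 was lower in cKO by the rule in surface cells (105 and 39.3), absorptive cells (29.0 and 4.99) and goblet and Paneth cells (66.7 and 32.4). Cxcl14 was higher in stem cells (14.6 and 67.2), in cells with no subtype call (3.92 and 11.4) and in goblet and Paneth cells (1.56 and 22.4), the last with 94.2% of the cKO UMIs in 1 cell. Cxcl2 was lower in mitotic cells (234 and 112) and in goblet and Paneth cells (173 and 47.6), while Cxcl3 was higher in surface cells (22.8 and 62.9) and absorptive cells (12.3 and 30.7). Ccl7 was higher in mitotic cells (4.04 and 10.6) and absorptive cells (20.8 and 51.4). Ccl20 was lower in mitotic cells (26.6 and 8.76) and in goblet and Paneth cells (13.7 and 5.51), Ccl2 in goblet and Paneth cells (22.4 and 7.78) and Ccl5 in cells with no subtype call (11.2 and 4.602). The other calls, of Cxcl9 and Cxcl13, had up to 96.8% of their UMIs in 1 cell.

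In T and NK cells Cxcl10 was at 254 in WT and 94.0 in cKO (log2 ratio -1.43, interval -1.64 to -1.23). It had UMIs in 39.3% of 242 WT and 20.4% of 362 cKO cells at median depths of 7967.5 and 7775, and in 17.6% and 8.51% after thinning to 1500 UMIs, against 2.18% and 2.76% of thinned B cells. Epithelial cells carried Cxcl10 at 153 and 108, and epithelial marker RNA was 15.1 and 9.56 UMIs per 10000 in T and NK cells against 131 and 121 in the epithelium. The part of epithelial RNA in the T cell level was not tested. Regulatory T cells held 423 of the 550 WT UMIs and 169 of the 296 cKO UMIs, at levels of 346 and 115. Of 13 ligands measured in regulatory T cells 1 was higher in cKO (Cxcl3) and 4 lower (Ccl1, Ccl4, Ccl20 and Cxcl10), against 2.16% and 2.19% of 9027 genes. Ccl20, the Ccr6 ligand, was at 88.5 in WT from 192 UMIs and at 2.86 in cKO from 9 UMIs. It had UMIs in 5.79% and 1.93% of cells, and 25% of the WT UMIs came from 1 cell. T and NK cells were the main source of Ccl20 in WT, and mast cells and basophils in cKO, at 55.6. Cells with squamous markers were not ranked as a class of their own, and the 58 in cKO carried Ccl20 at 167. Without the top cell of each class, the cKO source was the epithelium, which held 87.9% and 95.7% of the gated Ccl20 UMIs. Ccl1 was at 126 and 28.6 and rested on 1 WT cell.

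In macrophages and monocytes the summed ligand level was 6969 in WT and 11631 in cKO (log2 ratio 0.74, interval 0.71 to 0.76). Cxcl2 made up 43.9% and 49.4% of it. Higher in cKO by the rule were Cxcl3 (161 and 509.9), Ccl5 (54.9 and 192), Cxcl9 (48.6 and 159.7), Ccl24 (66.4 and 166), Ccl12 (64.6 and 137), Ccl2 (116 and 233) and Cxcl5 (7.99 and 18.2). Lower was Ccl17, at 12.9 and 5.95, with 70.3% and 68.4% of its UMIs in 1 cell. C1q-low cells, which carried more Cxcl2 and Cxcl3, were 35 of 148 cells in WT and 63 of 168 in cKO. The part of this share in the sum was not tested. Split by C1q, the sum was 6498 and 9411 in C1q-high and 8989 and 15931 in C1q-low cells. Among C1q-low cells 10 of 18 measured ligands were higher and 0 lower by the rule, where 6.08% of 8378 genes were higher and 3.31% lower. The 10 were Ccl2, Ccl3, Ccl4, Ccl5, Ccl6, Ccl24, Cxcl1, Cxcl3, Cxcl5 and Cxcl9. Among C1q-high cells 3 of 20 were higher and 2 lower, against 1.85% and 2.24% of 8599 genes. With a stricter gate, which kept cells with a wider margin to the next class, Cxcl3 and Ccl24 were lower in cKO, at log2 ratios of -0.32 and -3.43.

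Ccl12 and Ccl5 were higher in cKO C1q-high cells, Ccl12 at 78.0 and 206 (log2 ratio 1.40, interval 1.15 to 1.66) with UMIs in 38.1% and 48.6% of cells, and Ccl5 at 63.8 and 247 with 36.5% of the cKO UMIs in 1 cell. Cxcl16 was within its counting interval in the class as a whole, at 584 and 583. Fibroblast markers were at 0.22 and 0.18 UMIs per 10000 in macrophages and monocytes.

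In neutrophils the 5 ligands with the highest levels, Cxcl2, Cxcl3, Ccl3, Ccl4 and Ccl6, each differed less than 2-fold. Among them Ccl4 differed most, at 1109 and 1772 (log2 ratio 0.68, interval 0.56 to 0.79), and the sum was 23505 and 26055 (log2 ratio 0.15, interval 0.12 to 0.17). The ligands that were higher in cKO all stood at 56.7 or less in WT neutrophils. Cxcl10 was at 52.0 and 217 (log2 ratio 2.04, interval 1.55 to 2.62) and Cxcl1 at 56.7 and 203 (1.82, interval 1.35 to 2.37), from 33 and 36 WT UMIs. Their shares of cells with a UMI were 14.4% and 15.6% for Cxcl10 and 15.2% and 17.3% for Cxcl1, so that the cKO level lay in more UMIs per carrying cell. Epithelial marker RNA in neutrophils was 20.9 UMIs per 10000 in WT and 12.4 in cKO, and its part in these levels was not tested. Ccl2 (17.3 and 78.5) and Cxcl14 (4.73 and 33.3) were also higher. Cxcl9 was 0 in 132 WT neutrophils, which by the limit of 3 counts allows a share of up to 2.27% of cells with a UMI, and 62.3 in cKO, at least 13.2-fold higher when WT is set at 3 counts, with 58.0% of its UMIs in 1 cell. Ccl5 in cKO, and Ccl17 and Ccl7 in WT, each rested on 1 cell with 87.9%, 100% and 92.3% of the UMIs.

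Among the receptors, 22 of a list of 23 were measured in some class, and 19 of the 23 had the same highest class in both libraries. Cxcr2, the receptor for Cxcl1, Cxcl2, Cxcl3 and Cxcl5, was at 446 and 421 in neutrophils, which were also the main source of Cxcl2 and Cxcl3, and at most 0.27 in any other WT class and 3.30 in any other cKO class. Ccrl2 at 1726 and 1610.02 and Ccr1 at 772 and 798 were highest in neutrophils too. Xcr1, the receptor of Xcl1, was at 124 and 82.5 in dendritic cells. Cxcr6, which binds Cxcl16, was at 266 and 204 in T and NK cells, and Ccr10, which binds Ccl28, at 109 and 163 in plasma cells. No receptor reached 10 CPM in the epithelium. In T and NK cells 2 of 15 measured receptors were higher in cKO by the rule (Cxcr5 and Ackr3) and 0 lower, where 1.22% and 1.47% of all measured genes were. In macrophages and monocytes 2 of 7 were higher, Ccr2 at 58.4 and 119.6 and Ccr7 at 5.21 and 19.7, and 0 lower, where 2.4% and 1.33% of genes were. In neutrophils 0 of 10 passed in either direction, where 3.17% of genes were higher and 3.6% lower. Pf4 and Ppbp, chemokines whose symbols fall outside the naming rule, were highest in macrophages and monocytes, at 704 and 464 and at 10.1 and 28.2.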

How the data were processed

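Each deposited matrix lists raw UMI counts by gene and cell barcode, which the file headers attribute to Cell Ranger 7.2.0. Seurat 3.0 and the build mm10 are named in the submitters' processing notes, while the cell filters of the authors are not stated there. Barcodes with fewer than 500 genes or over 25% mitochondrial UMIs were left out, as were those with the highest Scrublet scores (scanpy 1.11.5), at 0.8% per 1000 barcodes. Cells with at least 1500 UMIs were gated on at least 3 detected markers of a class and a score 1.2 times that of the next class. Epithelial cells needed 32 epithelial marker UMIs per 10000. UMIs were summed per class and library. Ratios are log2 after adding 0.5 counts. Intervals are exact Poisson for levels, conditional binomial for ratios and Clopper-Pearson for shares, and cover counting error only. Scripts were tested on simulated counts. Members and gene lists were chosen with earlier results of these data known, and the gate thresholds after the cells were seen. The naming rule took the 3 highest ligands of each class and, in the 4 compared classes, every ligand past the 2-fold rule; other members are given by counts, ranges or single values. Alternatives were another classing, barcode filter, summing, scaling, detection minimum and gate margin, and cells split by Xist and Y-linked UMIs.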

Additional observations from a re-analysis of the deposited data

Results flagged for a closer look

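Some ligands differed between the libraries in opposite directions in different cells, each past the 2-fold rule, and the differences between those cells were not tested. Cxcl10 had a log2 ratio of cKO over WT of 2.04 in neutrophils and -1.43 in T and NK cells. Ccl24 had 1.53 in C1q-low cells (165 and 481 CPM) and -3.43 in C1q-high cells (43.3 and 3.80, from 101 and 8 UMIs). Cxcl13 had 4.24 in epithelial cells with surface and wound markers, 1.52 in epithelial cells with no subtype call and -1.60 in goblet and Paneth cells, and 87.6% of the 145 cKO UMIs of the surface cells came from 1 cell. Cxcl9 had 3.91 in mitotic and 2.999 in goblet and Paneth cells, where 1 cKO cell held 96.8% and 69.0% of the UMIs. It had -4.46 in surface cells and -7.00 in absorptive cells. The last value depends on the 0.5 counts added, because cKO had 0 UMIs. With cKO set at 3 counts the level was at least 21.3-fold lower, and 89.9% of the 109 WT UMIs came from 1 cell.

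Kept barcodes under 1500 UMIs, which were left out of all classes, also carried ligand RNA. Their summed level was 1572 CPM in WT and 2374 in cKO, with Cxcl2 at 341 and 878.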

How the results depend on the processing

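No paired analysis was possible because each genotype has 1 library. With 1 library per genotype nothing here measures variation between mice or tumours, and classes of under 50 cells rest on few cells. Main sources agreed between the libraries for 22 ligands, and for 21 or 22 under each alternative. This count is of agreement between the libraries, and the class itself could change. With clusters, Cxcl5, Cxcl12, Cxcl13 and Cxcl14 moved from fibroblasts to another class in both libraries. All 22 ligand differences met the rule at a minimum of 5 CPM and under both other scalings. The causes of the changes below were not tested. Each ratio is log2 of cKO over WT.

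With clusters, which gave no fibroblast class, the counts of ligands higher in cKO were 1 in the epithelium, 1 in T and NK cells and 2 in neutrophils (0 lower), and the summed ratios were -0.25 in the epithelium, 0.18 in T and NK cells, 0.88 in macrophages and monocytes and 0.35 in neutrophils. With all deposited barcodes 1 epithelial ligand was higher and the T and NK sum was -0.21. With means per cell, 2 epithelial ligands and 1 neutrophil ligand were lower, 1 T and NK ligand was higher, and the sums were -0.15, 0.25, 0.80 and 0.29 in the same order of classes. With the stricter gate, 1 epithelial ligand was higher and 2 lower, 4 macrophage ligands higher and 2 lower, and 1 neutrophil ligand lower. The sums were -0.11, -0.020, 0.43 and 0.27, and Cxcl9 in the epithelium (-0.037), Cxcl3 (-0.32) and Ccl24 (-3.43) in macrophages and Ccl5 in neutrophils (-0.34) changed sign. Scaling that left out 4 gene groups, the mitochondrial, ribosomal, haemoglobin and immunoglobulin ones, gave an epithelial sum of -0.14, median-of-ratios scaling -0.16 and a neutrophil sum of 0.27, and equal weights of epithelial subtypes -0.24. At a minimum of 5 CPM 2 epithelial ligands were lower, and at 20 none were higher in the epithelium (0) and none lower in macrophages (0).

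Epithelial cells with Xist and no Y-linked UMIs numbered 1055 in WT and 307 in cKO, and those with Y-linked and no Xist UMIs 1190 and 1084. In T and NK cells the numbers were 104 and 44, and 101 and 267. This difference in make-up cannot be told apart from genotype in the ratios over all cells. The Xist cells included only 20 and 31 neutrophils and 48 and 27 macrophages and monocytes. In cells with Xist and no Y-linked UMIs, 1 epithelial ligand was higher and 2 lower, 1 T and NK ligand higher, and 3 neutrophil ligands higher and 0 lower. The sums were -0.28, -0.28, 1.14 and -0.27, and Cxcl9 in the epithelium (-1.07), Ccl1 in T and NK cells (4.17), Cxcl5 (-0.074) and Ccl17 (1.78) in macrophages, and Ccl2 (-1.09) and Ccl7 (0.79) in neutrophils changed sign. In cells with Y-linked and no Xist UMIs, 2 T and NK ligands were higher, 4 macrophage ligands higher and 4 lower, and the sums were -0.16, -0.10, 0.64 and 0.38. Without the cell with most UMIs, chosen after the data were seen, 1 epithelial and 1 T and NK ligand were higher, 0 macrophage and 0 neutrophil ligands were lower, the neutrophil sum was 0.22, and Ccl17 in neutrophils (2.80) changed sign.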
